A study of Arabidopsis thaliana with 18 samples.

Results

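The chlorophyll synthesis genes HEMA2, GSA1, HEMB1, HEME1, HEME2, CHLI2, CHLM and LIL3:1 were followed on 18 Affymetrix arrays of dark-grown Arabidopsis thaliana seedlings (ecotype Columbia). They are a fixed list of 8 genes, chosen with earlier results of these data known. The platform's probe table assigns each a probe set alone, and each had 1 probe set of the 22746 that were tested. The table does the same for 6 of 27 further genes of the chlorophyll branch, which are described below. Both genotypes were profiled in 3 conditions with 3 arrays each, lettered A, B and C. The groups were pif4pif5, which lacks the transcription factors PIF4 and PIF5, and wild type, each kept dark or given far-red light, either for 1 h with a fluence rate of 0.5 µmol/m2/s or for 24 h with one of 5 µmol/m2/s. All seeds had 3 days in the cold and a 3 h red pulse with a fluence rate of 50 µmol/m2/s, and all seedlings then had 3 days of darkness before any far-red treatment. Seedlings given 24 h of light were therefore older than the dark ones, and duration, fluence rate and age cannot be told apart at that point. RNA came from whole seedlings, so fewer cells of a type and less RNA per cell cannot be told apart either. The labels do not say that the replicates were separate cultures, and the p values may then measure technical spread only.

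Chlorophyll and haem share a plastid pathway that starts from glutamate, passes through 5-aminolevulinic acid and the porphyrinogens, and divides where magnesium or iron is inserted into the ring. HEMA2 encodes a glutamyl-tRNA reductase, the enzyme of the first committed step, in the isoform associated with non-photosynthetic tissue. GSA1 encodes the aminomutase that makes 5-aminolevulinic acid, HEMB1 a dehydratase that joins this acid into porphobilinogen, and HEME1 and HEME2 encode uroporphyrinogen decarboxylases. These steps serve haem as well as chlorophyll. CHLI2 encodes an ATPase subunit of magnesium chelatase and CHLM the methyltransferase that acts on its product, both on the chlorophyll branch. LIL3:1 encodes a light-harvesting-like membrane protein that holds geranylgeranyl reductase, which supplies the phytyl tail. In etiolated seedlings the last reduction of the ring needs light absorbed by protochlorophyllide itself. Far-red light acts through phytochrome A and drives that reduction poorly, so seedlings in far-red light switch on greening genes without greening.

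All levels are log2 signal intensities and all changes are differences of them. Groups were compared with limma, fitted to all 22746 probe sets at once, and a gene counts as called where its Benjamini-Hochberg adjusted p over all of them was under 0.05. Levels of different probe sets are not comparable with each other, so differences between groups are read within each probe set. The wild-type dark arrays stood apart in quality. The median over all probe sets was 6.16 on wild-type dark array C and between 5.60 and 5.88 on the other 17, and correlations between replicates ran from 0.967, between dark arrays B and C of wild type, to 0.997. The median change of all probe sets against darkness in wild type was -0.12 at 1 h and at 24 h, and became -0.04 and -0.02 once the arrays were set to a common median, while that in pif4pif5 at 24 h moved to 0.11, against -0.04 as deposited. Among markers of single cell types, RCA of green tissue read 10.88 or more on every array, EXPA7 of root hairs at most 4.03 and FAMA of guard cells at most 5.46. These are levels of different probe sets and do not measure the shares of cell types. The annotation gave the other fixed marker genes no probe set of their own, and gave none to PIF4 or PIF5. It named no gene for 8730 probe sets, so the array may still measure these genes. Here and below, a probe set of its own refers to that annotation. The genotypes were therefore not checked on the mutated genes.

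The genes fell into 3 kinds. HEME1, HEME2, CHLI2 and CHLM rose after 24 h of far-red light in both genotypes. HEMB1 and LIL3:1 had positive changes at 24 h that were not called with all arrays and the main settings, and HEMA2 and GSA1 stayed within 0.18 of their dark means in either genotype after 24 h. HEME1 was also higher in the mutant than in wild type after 24 h of light.

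**Figure D1:**
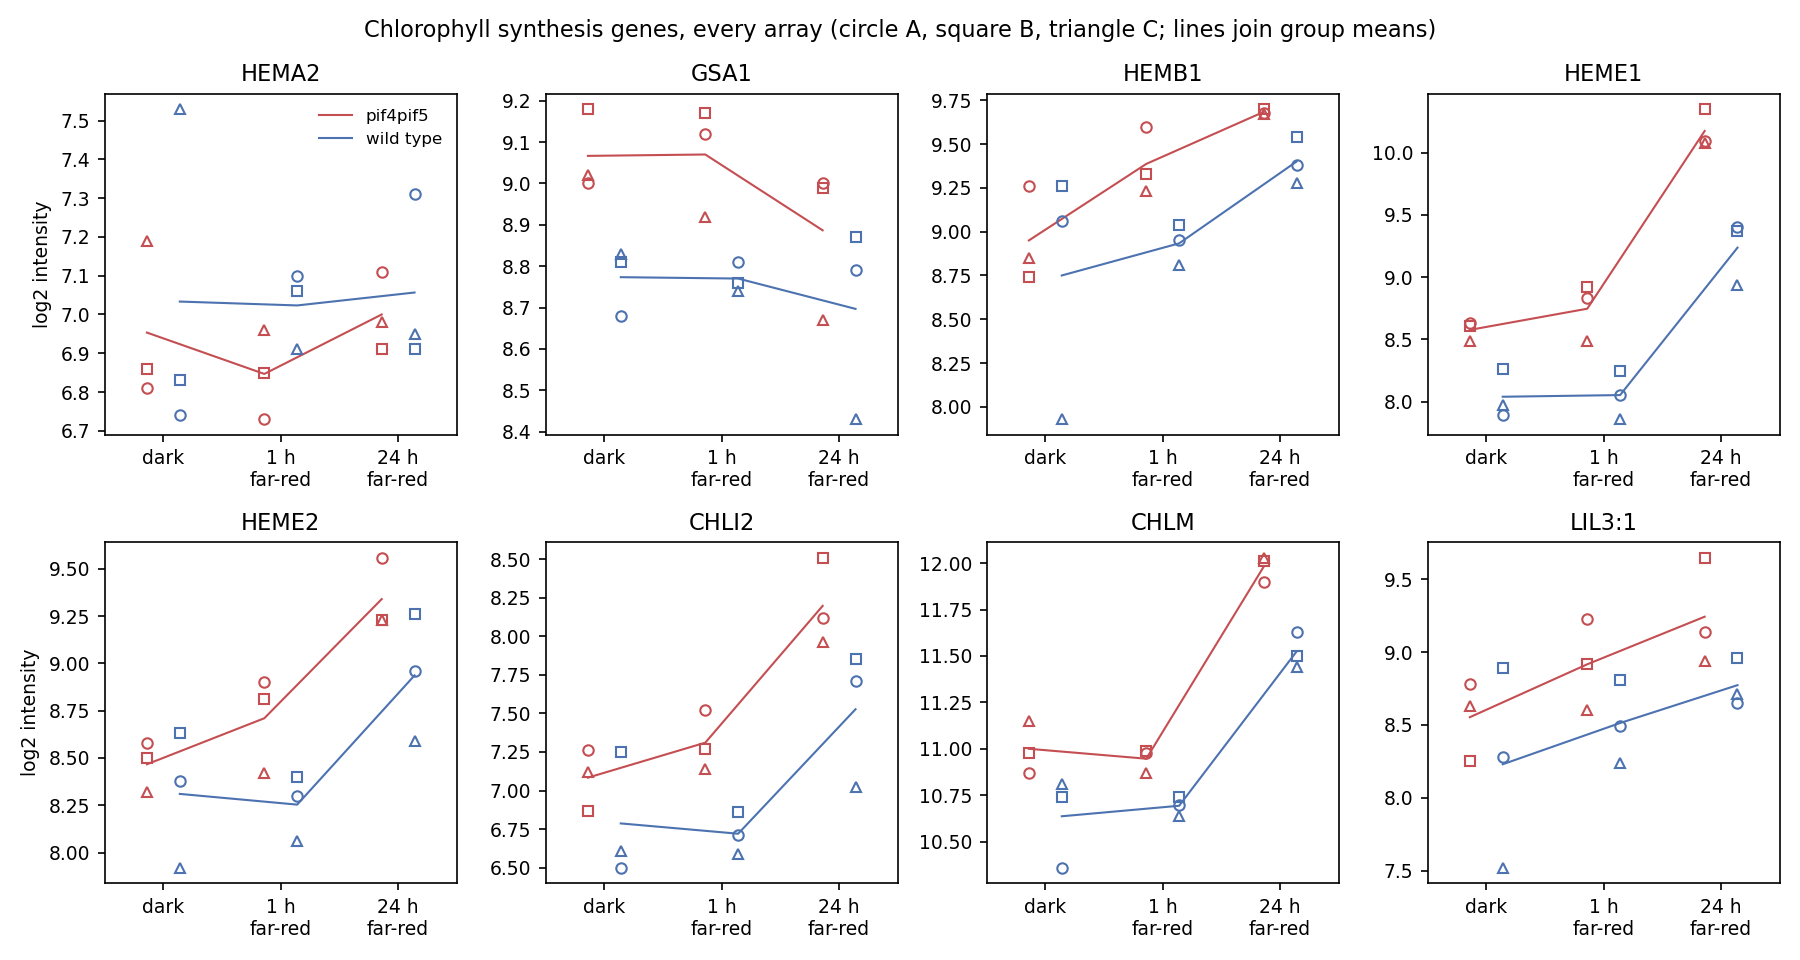
Log2 intensity of the 8 genes on every array, in darkness, after 1 h and after 24 h of far-red light. Red symbols are pif4pif5 and blue symbols wild type, circles, squares and triangles are arrays A, B and C, lines join group means, and each panel has its own scale. HEME1 and CHLM are higher at 24 h than before in both genotypes, with every mutant 24 h array above every wild-type 24 h array.

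HEME1 had the widest range of the 8 genes, with group means that spanned 2.13. In pif4pif5 it read 8.63, 8.61 and 8.49 in darkness, 8.83, 8.92 and 8.49 after 1 h, and 10.09, 10.35 and 10.08 after 24 h. In wild type it read 7.89, 8.26 and 7.97 in darkness, 8.05, 8.25 and 7.86 after 1 h, and 9.40, 9.37 and 8.94 after 24 h. The 24 h arrays lay above all earlier arrays of their genotype, and the mutant arrays lay above the wild-type arrays in each condition. In order of level, wild type in darkness and at 1 h did not differ beyond their spread (gap 0.01, pooled SD 0.19), and the mutant in darkness and at 1 h overlapped. Wild type at 24 h and then the mutant at 24 h followed, each clear of the group beneath it.

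CHLM was the gene with the least scatter, with a residual SD of 0.13. In pif4pif5 it read 10.87, 10.98 and 11.15 in darkness, 10.98, 10.99 and 10.87 after 1 h, and 11.90, 12.01 and 12.03 after 24 h. In wild type it read 10.36, 10.74 and 10.81 in darkness, 10.70, 10.74 and 10.64 after 1 h, and 11.63, 11.50 and 11.44 after 24 h. Here too the 24 h arrays stood clear of the earlier ones, and the genotypes did not overlap in any condition. Darkness and 1 h were not separated in either genotype, with gaps of 0.05 in the mutant and 0.06 in wild type.

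CHLI2 in pif4pif5 read 7.26, 6.87 and 7.12 in darkness, 7.52, 7.27 and 7.14 after 1 h, and 8.12, 8.51 and 7.96 after 24 h. In wild type it read 6.50, 7.25 and 6.61 in darkness, 6.71, 6.86 and 6.59 after 1 h, and 7.71, 7.85 and 7.02 after 24 h. Array C of the wild-type 24 h group lay within the range of its dark arrays, whereas the mutant groups at 24 h and in darkness did not overlap. The genotypes overlapped in darkness and were apart at 1 h and at 24 h.

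HEME2, the other uroporphyrinogen decarboxylase gene, in pif4pif5 read 8.58, 8.50 and 8.32 in darkness, 8.90, 8.81 and 8.42 after 1 h, and 9.56, 9.23 and 9.23 after 24 h. In wild type it read 8.38, 8.63 and 7.92 in darkness, 8.30, 8.40 and 8.06 after 1 h, and 8.96, 9.26 and 8.59 after 24 h. The 24 h arrays of the mutant were above all its dark arrays, and in wild type the lowest 24 h array fell below the highest dark one. Between genotypes HEME2 was apart only at 1 h.

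HEMB1 and LIL3:1 had the widest spread in wild-type darkness. HEMB1 averaged 8.95 ± 0.28, 9.39 ± 0.19 and 9.68 ± 0.02 (SD, n = 3) in the mutant in darkness, at 1 h and at 24 h, and 8.75 ± 0.72, 8.93 ± 0.12 and 9.40 ± 0.13 in wild type. The wide SD of the wild-type dark group came from array C, which read 7.93 where A and B read 9.06 and 9.26. LIL3:1 averaged 8.56 ± 0.27, 8.91 ± 0.31 and 9.25 ± 0.37 in the mutant and 8.23 ± 0.68, 8.51 ± 0.28 and 8.77 ± 0.16 in wild type, again with dark array C lowest at 7.52 against 8.28 and 8.89. No neighbours in the order of its 6 group means were separated by more than their pooled SD.

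GSA1 was level across light and averaged 9.06 ± 0.10, 9.07 ± 0.14 and 8.89 ± 0.19 in the mutant and 8.77 ± 0.08, 8.77 ± 0.03 and 8.70 ± 0.23 in wild type. Its genotypes did not overlap in darkness or at 1 h and overlapped at 24 h. HEMA2 had the narrowest range, with a span of 0.21 between its group means. Its arrays read 6.73 to 7.19 in the mutant and 6.74 to 7.53 in wild type, and wild-type dark array C was its highest. No 2 neighbours among its group means differed beyond their spread.

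The first question of the design is what far-red light changes in each genotype. After 24 h in pif4pif5, 4 of the 8 genes were called and all 4 were higher than in darkness, where 11.5% of all probe sets were called and 4.24% were called higher. HEME1 averaged 10.17 ± 0.15 after 24 h and 8.58 ± 0.08 in darkness (SD, n = 3 each), a rise of 1.59 (SE 0.16, 3.01-fold, limma adjusted p = 2.93e-06). CHLI2 rose by 1.11 (SE 0.22, 2.16-fold, adjusted p = 0.00223), CHLM by 0.98 (SE 0.13, 1.97-fold, adjusted p = 5.45e-05) and HEME2 by 0.87 (SE 0.20, 1.83-fold, adjusted p = 0.0064). These 4 genes were called under each alternative normalization, filter, block and left-out array that was tried. HEMB1 differed by 0.73 (SE 0.24, adjusted p = 0.06) and LIL3:1 by 0.69 (SE 0.27, adjusted p = 0.123), with groups that did not overlap for either. HEMB1 was called with the replicate block (adjusted p = 0.0311), with array weights (adjusted p = 0.00404), with dim probe sets left out (adjusted p = 0.034) and when only the compared groups were fitted (adjusted p = 0.0161). The median over the 8 genes was 0.80, and -0.04 over all probe sets.

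In wild type the same 4 genes were called higher after 24 h, against 11.3% of all probe sets called and 4.48% called higher. HEME1 averaged 9.24 ± 0.26 after 24 h and 8.04 ± 0.20 in darkness, a rise of 1.20 (SE 0.16, 2.30-fold, adjusted p = 5.58e-05). CHLM rose by 0.88 (SE 0.13, 1.85-fold, adjusted p = 1.59e-04), CHLI2 by 0.74 (SE 0.22, adjusted p = 0.0394) and HEME2 by 0.63 (SE 0.20, adjusted p = 0.0489), the last 2 with overlapping groups. The median over the 8 genes was 0.64, and -0.12 over all probe sets. Without wild-type dark array C these medians were 0.35 and 0.01. The calls of CHLI2 and HEME2 depended on single arrays and on the settings of the fit. HEME2 was not called with the arrays set to a common median (adjusted p = 0.0719) or with array weights (adjusted p = 0.147), and when only the compared groups were fitted neither HEME2 (adjusted p = 0.293) nor CHLI2 (adjusted p = 0.251) was. Without wild-type dark array C, 2 genes were called, HEME1 (1.17) and CHLM (0.97), and CHLI2 (0.65, adjusted p = 0.0925) and HEME2 (0.43, adjusted p = 0.158) were not. Without dark array B, 6 were called, with HEMB1 (0.90, adjusted p = 0.0203) and LIL3:1 (0.87, adjusted p = 0.0363) added. Of all probe sets 13.7% were called without array C and 10.9% without array B. Without both arrays, which leaves 1 wild-type dark array that is assumed to vary like the other groups, HEME1 (1.35), CHLM (1.16) and CHLI2 (1.02) were called. Without 24 h array A or B, 2 genes were called, and without dark array A, 3 (HEME1, CHLM and HEMB1, with HEMB1 at 0.80 and adjusted p = 0.0478). HEME1 and CHLM kept their calls in all 13 alternatives run for this comparison. RCA, the measured one of 7 listed green-tissue markers, rose with these genes after 24 h, by 1.13 in pif4pif5 (SE 0.15, adjusted p = 4.05e-05) and by 1.56 in wild type (SE 0.15, adjusted p = 1.15e-06). Its part in their change was not tested.

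**Figure D2:**
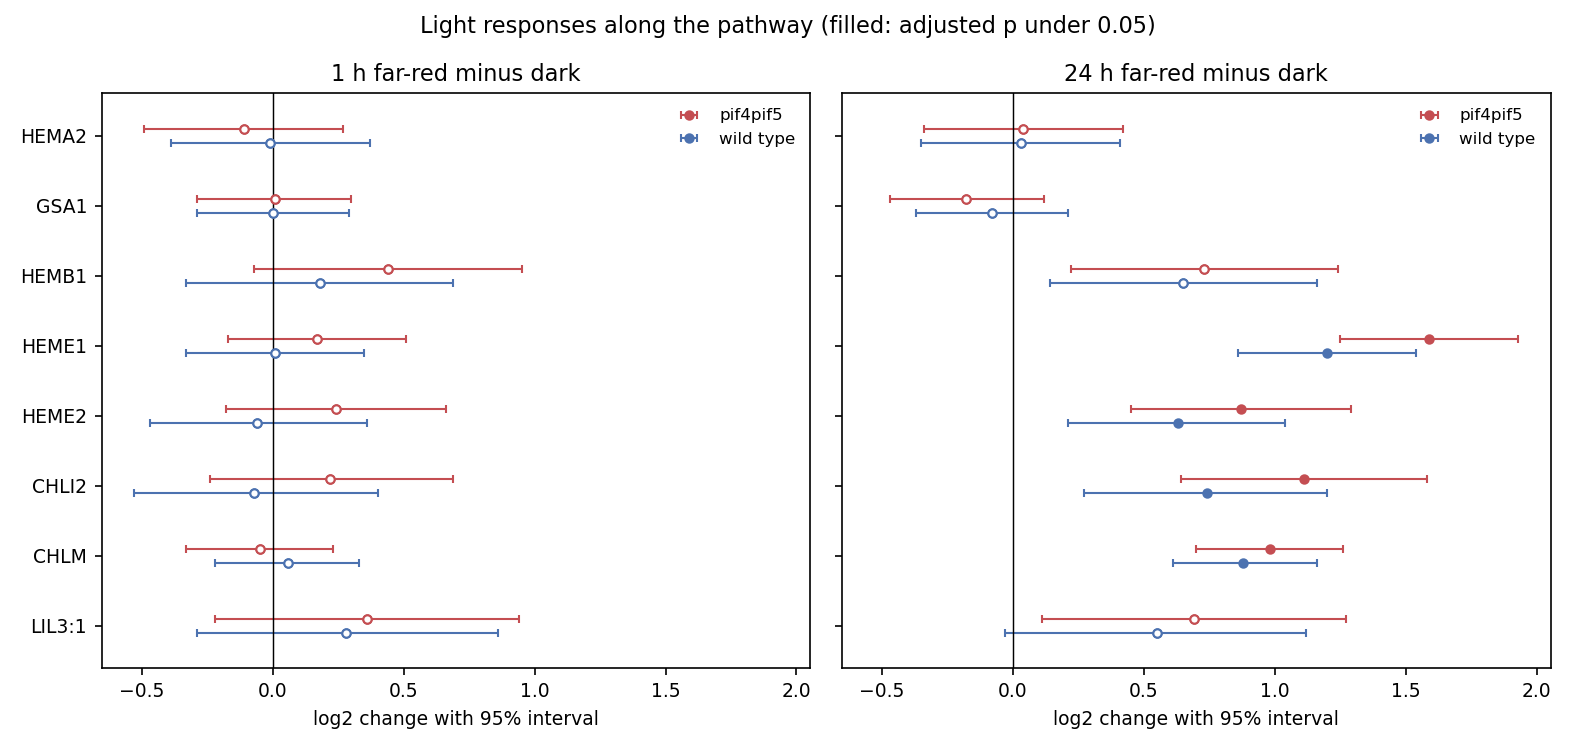
Log2 change of each gene after 1 h (left) and 24 h (right) of far-red light against darkness of the same genotype, pif4pif5 in red and wild type in blue, with 95% intervals of the limma fit; filled points have an adjusted p under 0.05. At 24 h HEME1, HEME2, CHLI2 and CHLM are filled in both genotypes, and at 1 h no point is filled.

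At 1 h none of the 8 genes was called in either genotype, and 0 had even an unadjusted p under 0.05. At that time 0.699% of all probe sets were called in pif4pif5 and 0.787% in wild type. The changes lay between -0.11 and 0.44 in the mutant, with a median of 0.20, and between -0.07 and 0.28 in wild type, with a median of 0.01. The 95% interval of the 1 h change of HEME1 ran from -0.17 to 0.51 in the mutant and from -0.33 to 0.35 in wild type. That of CHLM ran from -0.33 to 0.23 in the mutant and from -0.22 to 0.33 in wild type. HYH, a bZIP factor of light signalling and the one gene of the fixed list of regulators with a probe set of its own, had risen by then, by 1.57 (SE 0.24) in the mutant (adjusted p = 0.00156) and 1.65 (SE 0.24) in wild type (adjusted p = 9.14e-04, and 0.0928 when only the compared groups were fitted).

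From 1 h to 24 h in far-red light the same 4 genes rose in each genotype. In pif4pif5, where 11.4% of all probe sets were called and 4.52% called higher, HEME1 rose by 1.42 (SE 0.16, adjusted p = 1.46e-05), CHLM by 1.03 (SE 0.13, adjusted p = 4.72e-05), CHLI2 by 0.89 (SE 0.22, adjusted p = 0.0128) and HEME2 by 0.63 (SE 0.20, adjusted p = 0.0471). In wild type, where 7.21% were called and 3.81% called higher, HEME1 rose by 1.19 (SE 0.16, adjusted p = 9.38e-05), CHLM by 0.83 (SE 0.13, adjusted p = 4.32e-04), CHLI2 by 0.80 (SE 0.22, adjusted p = 0.0332) and HEME2 by 0.68 (SE 0.20, adjusted p = 0.0427). HEME1 and CHLM kept these calls in each alternative run. HEME2 lost its call in the mutant when any 1 of the 6 arrays was left out (0.49 to 0.72), with quantile normalization (adjusted p = 0.0559) and with a common median (adjusted p = 0.0738). CHLI2 and HEME2 lost their calls in wild type with quantile normalization, with a common median and without any 1 of the arrays other than 24 h array C (CHLI2 0.64 to 0.87, HEME2 0.52 to 0.76). CHLI2 in the mutant lost its call without 1 h array C (0.80) or 24 h array B (0.73). HEMB1, LIL3:1, HEMA2 and GSA1 were called in neither genotype, except that HEMB1 (0.47, adjusted p = 0.33) was called in wild type with array weights (adjusted p = 0.0306) and when only the compared groups were fitted (adjusted p = 0.0379).

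HEME1 and HEME2 encode enzymes of the same step, and their rises were set against each other within each array, a comparison chosen after the values had been seen and given as a description with no test. HEME1 minus HEME2 moved by 0.72 in pif4pif5 and by 0.58 in wild type after 24 h, relative to darkness, which is the amount by which the rise of HEME1 exceeded that of HEME2. Averaged over the genotypes the excess was 0.65. All 24 h arrays lay above all dark arrays of their genotype in this difference, at 0.53, 1.12 and 0.85 against 0.05, 0.11 and 0.17 in the mutant and at 0.45, 0.11 and 0.35 against -0.49, -0.38 and 0.05 in wild type. Dark array C of wild type was the closest to the 24 h arrays.

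The second question is how the loss of PIF4 and PIF5 changes these genes. All of the 8 but HEMA2 had a positive difference between mutant and wild type in each condition. HEMA2 differed by -0.08 in darkness, -0.18 at 1 h and -0.06 at 24 h. The median over the 8 genes was 0.29 in darkness, 0.43 at 1 h and 0.43 at 24 h, and over all probe sets it was -0.05, -0.02 and -0.00. Without wild-type dark array C the dark median of the 8 genes was 0.19. Without wild-type dark array C the differences of HEMB1 (-0.21), HEME2 (-0.04) and LIL3:1 (-0.03) in darkness were negative and that of HEMA2 (0.17) was positive. In darkness and at 1 h none of the 8 was called by limma, at 0.0264% of all probe sets called in each. With unadjusted p under 0.05 there were 2 genes in darkness and 4 at 1 h, where 7.27% and 4.06% of all probe sets were. At 24 h there were 3, and in the average over the 3 conditions 7, where 8.27% and 10.7% of all probe sets were.

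At 24 h HEME1 alone was called, against 0.365% of all probe sets called and 0.0791% called higher. It averaged 10.17 ± 0.15 in pif4pif5 and 9.24 ± 0.26 in wild type (SD, n = 3 each), a difference of 0.93 (SE 0.16, 1.90-fold, adjusted p = 0.0154). The call was lost without mutant 24 h array B (0.84, adjusted p = 0.077) and when only the compared groups were fitted (adjusted p = 0.168). In the fit with array weights that array had a weight of 0.39, and wild-type dark arrays B and C had 0.32 and 0.15. HEME1 kept its call in that fit (0.84, adjusted p = 0.00925). The corresponding differences of HEME1 were 0.54 in darkness (SE 0.16, adjusted p = 0.492) and 0.70 at 1 h (SE 0.16, adjusted p = 0.246), with no overlap of the genotypes in either. CHLI2 differed by 0.67 at 24 h (SE 0.22, adjusted p = 0.327) and CHLM by 0.46 (SE 0.13, adjusted p = 0.2), also without overlap. HEMB1 differed by 0.28 at 24 h (SE 0.24, adjusted p = 0.848) and by 0.46 at 1 h (SE 0.24, not called), without overlap in either. The genotypes overlapped at 24 h for HEME2, LIL3:1, GSA1 and HEMA2.

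Averaged over the 3 conditions, HEME1 was higher in pif4pif5 by 0.72 (SE 0.09, 1.65-fold, adjusted p = 5.73e-04) and CHLM by 0.36 (SE 0.08, 1.28-fold, adjusted p = 0.023). These were 2 of the 8 genes, at 1.24% of all probe sets called and 0.84% called higher. CHLI2 fell short at 0.52 (SE 0.13, adjusted p = 0.0559). HEME2 (0.34, adjusted p = 0.218), LIL3:1 (0.40, adjusted p = 0.334), HEMB1 (0.31, adjusted p = 0.424), GSA1 (0.26, adjusted p = 0.157) and HEMA2 (-0.11, adjusted p = 0.809) were not called. HEME1 kept its call in all 24 alternatives, with values between 0.67 and 0.77. CHLM lost its call in 5 of them, when wild-type 1 h array A or C, mutant dark array C or mutant 1 h array A or B was left out, and 1 gene was then called.

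**Figure D3:**
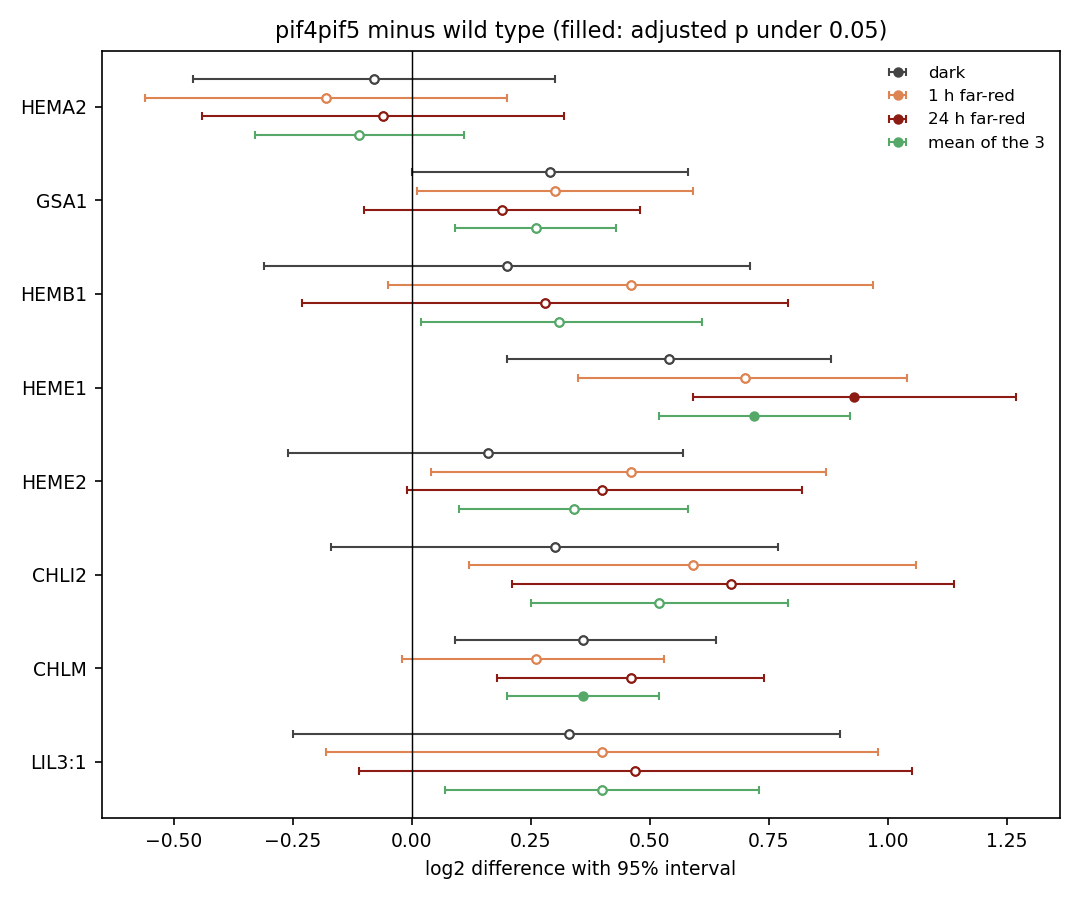
Log2 difference between pif4pif5 and wild type for each gene in darkness (grey), after 1 h (orange) and 24 h (dark red) of far-red light and averaged over the 3 conditions (green), with 95% intervals; filled points have an adjusted p under 0.05. HEME1 is filled at 24 h and in the average, CHLM in the average, and with all arrays HEMA2 alone lies left of 0 throughout.

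Whether the light response itself differed between the genotypes was tested as an interaction. None of the 8 genes was called by limma for 1 h or for 24 h of light, and 0 of them had an unadjusted p under 0.05 in either. Over all probe sets 0% were called for 1 h and 0.0132% for 24 h. At 24 h the response of HEME1 was larger in pif4pif5 than in wild type by 0.39 (SE 0.23, 95% interval -0.09 to 0.87, adjusted p = 0.871) and that of CHLI2 by 0.38 (SE 0.31, 95% interval -0.29 to 1.04, adjusted p = 0.897). For CHLM the difference was 0.10 (SE 0.19, 95% interval -0.29 to 0.49). These values moved with the wild-type dark arrays. Without array B that of CHLI2 was 0.14 and that of HEME1 0.28, and without array C that of CHLM was 0.01. Without both arrays that of CHLM was -0.18. HEMB1 went from 0.08 with all arrays to 0.49 without C and -0.17 without B. LIL3:1 went from 0.15 to 0.50 without C and -0.18 without B. The intervals leave a range of sizes in both directions, so the design did not resolve whether the mutant responds more.

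The levels of the wild-type dark arrays enter all comparisons with darkness in wild type and both interactions. They also enter the genotype difference in darkness and the average over light. Their spread enters the SE and p of all 12 comparisons, because the fit shares 1 spread per probe set across groups. With only the compared groups fitted, the adjusted p of HEMB1 moved from 0.06 to 0.0161 in the mutant after 24 h against darkness. For 24 h against 1 h in wild type it moved from 0.33 to 0.0379. The part of the wild-type dark arrays in these moves was not tested. Relative to array A, array C read lower for HEMB1, LIL3:1 and HEME2 and higher for HEMA2, and array B read higher for CHLI2, LIL3:1 and HEME1. Array A was itself the lowest for CHLM, at 10.36 against 10.74 on B and 10.81 on C. Without A the change in wild type after 24 h was 0.75 for CHLM and 1.13 for HEME1. At 1 h in wild type 1685 probe sets were called without A, against 179 with all arrays. The change of HEMB1 in wild type after 24 h was 0.65 with all arrays, 0.24 without C and 0.34 without B and C. That of LIL3:1 was 0.55, 0.19 and 0.49. The difference between the 3′ and 5′ control probe sets of actin, a sign of RNA quality, was 3.84 on array C, 4.61 on A and 5.10 on B, and 3.79 to 4.70 on the arrays of the other groups. Its part in these results was not tested.

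**Figure D4:**
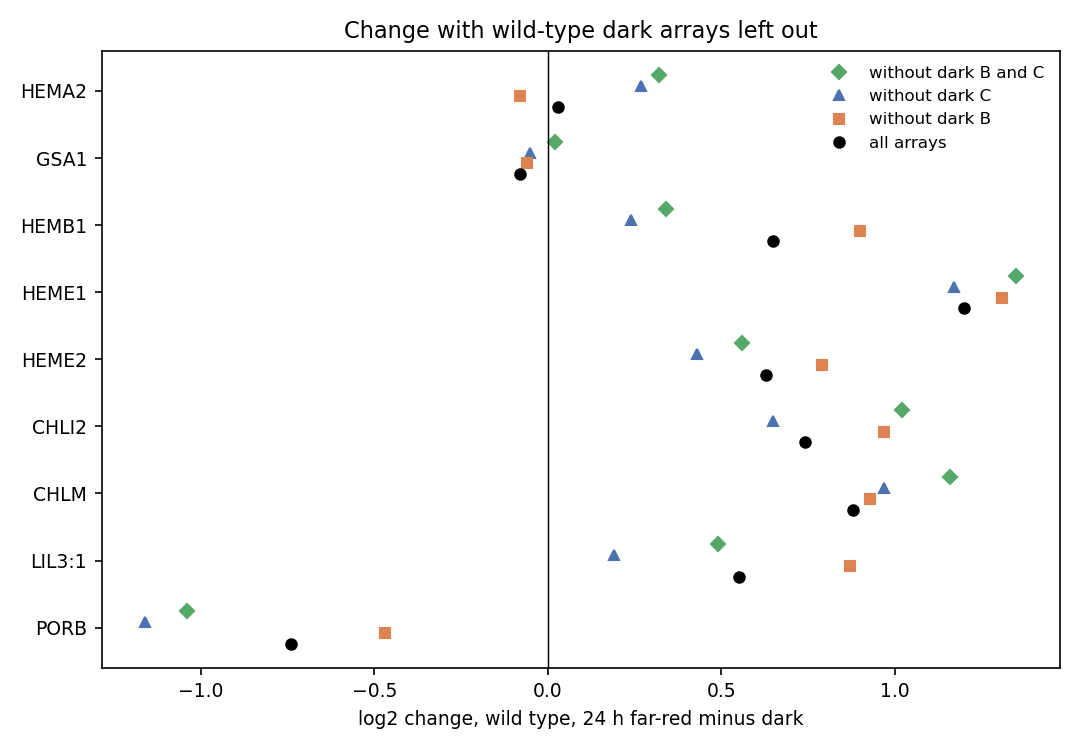
Log2 change in wild type between darkness and 24 h of far-red light (24 h minus dark) for the 8 genes and PORB, with all arrays (black circles), without dark array B (orange squares), without dark array C (blue triangles) and without both (green diamonds). In these settings HEME1 lies between 1.17 and 1.35 and CHLM between 0.88 and 1.16, and HEMB1 and LIL3:1 move most among the 8 genes. Without dark array A, which is not drawn, HEME1 changed by 1.13 and CHLM by 0.75.

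Of 27 further genes of the chlorophyll branch on a fixed list, 6 had a probe set of their own, and 0 of these 6 were called for any light response, at the shares of all probe sets given above. Their median change at 24 h was -0.24 in pif4pif5 and -0.27 in wild type. HEMA3 and HEMB2, isoforms of glutamyl-tRNA reductase and of the dehydratase, read between 2.96 and 4.20 on all arrays. PORB, a protochlorophyllide oxidoreductase that carries out the light-driven reduction, is named here after its values were seen. In pif4pif5 it read 11.82, 11.82 and 11.73 in darkness, 12.03, 12.04 and 11.70 after 1 h, and 11.22, 11.34 and 11.04 after 24 h. In wild type it read 11.85, 12.10 and 10.73 in darkness, 11.55, 11.69 and 11.30 after 1 h, and 10.78, 11.19 and 10.48 after 24 h. Its 24 h arrays lay below its dark arrays in the mutant, with a change of -0.59 (SE 0.26, adjusted p = 0.167), and overlapped them in wild type, with a change of -0.74 (SE 0.26, adjusted p = 0.0754). Dark array C was again the low one, and the change of PORB in wild type after 24 h was -1.16 without it (adjusted p = 3.4e-04), -0.47 without dark array B (adjusted p = 0.253) and -1.04 without both (adjusted p = 0.0101).

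CHLP, the geranylgeranyl reductase that LIL3:1 holds, was flat over light and higher in the mutant. In pif4pif5 it read 12.40, 12.40 and 12.31 in darkness, 12.41, 12.58 and 12.37 after 1 h, and 12.38, 12.38 and 12.39 after 24 h. In wild type it read 11.96, 12.15 and 11.97 in darkness, 12.23, 12.17 and 12.06 after 1 h, and 12.03, 12.15 and 12.10 after 24 h. The genotypes did not overlap in any condition, and averaged over the 3 CHLP was higher in the mutant by 0.31 (SE 0.06, adjusted p = 0.021). It was the 1 called of the 6 genes, at 1.24% of all probe sets called and 0.84% called higher. That call was lost when the arrays were set to a common median (adjusted p = 0.0736) and without wild-type 1 h array C, mutant dark array A or mutant 1 h array B (adjusted p = 0.0556 to 0.0693). LIL3:2, a paralog of LIL3:1, changed by -0.36 in the mutant (SE 0.13, adjusted p = 0.075) and by -0.21 in wild type (SE 0.13, adjusted p = 0.315) at 24 h, opposite in sign to LIL3:1. HEMF2, an isoform of coproporphyrinogen oxidase, changed by -0.47 in the mutant and -0.34 in wild type, again not called. LIL3:2 and HEMF2 were also picked after their values were seen.

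**Figure D5:**
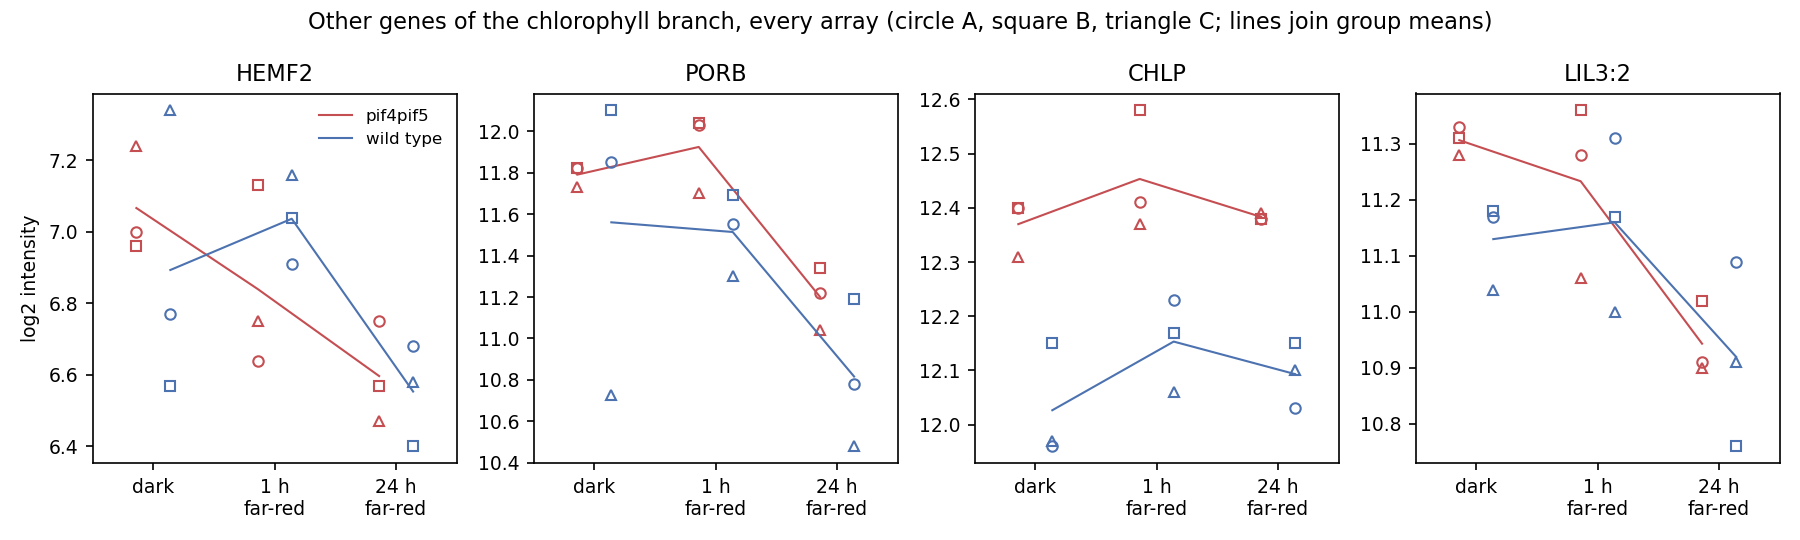
Log2 intensity on every array of 4 further genes of the chlorophyll branch, with symbols and colours for genotype and array as for the 8 genes and a separate scale in each panel. CHLP lies higher in pif4pif5 in all 3 conditions, and PORB is lower at 24 h than at 1 h in both genotypes.

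Of the side branches, 1 of 9 genes of the haem, bilin and sirohaem list and 1 of 10 of the chlorophyll turnover list had a probe set of their own. SIRB, a sirohydrochlorin ferrochelatase, changed by 0.11 in the mutant and 0.27 in wild type at 24 h. NOL, a chlorophyll b reductase, changed by 0.38 in the mutant and 0.24 in wild type. Neither was called in any comparison. HYH was the measured member of the 15 listed regulators. After 24 h it differed from darkness by 0.74 in the mutant (SE 0.24, adjusted p = 0.0571, not called) and rose by 1.58 in wild type (SE 0.24, adjusted p = 2.15e-04). The difference between these responses was -0.84 (SE 0.34, adjusted p = 0.84) and was not called. Without wild-type dark array A the rise in wild type was 1.22. Between the genotypes HYH differed by -0.12 at 24 h (adjusted p = 0.964) and by 0.72 in darkness (adjusted p = 0.526). HYH fell by 0.83 between 1 h and 24 h in the mutant (SE 0.24, adjusted p = 0.032). The fall was not called without 1 h array A or B or 24 h array A or B of the mutant (adjusted p = 0.0769 to 0.148).

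Over the 6 group means, HEME1, HEME2, CHLI2 and CHLM followed each other closely, with Pearson correlations between 0.97 and 1.00. HEMB1 and LIL3:1 correlated with these 4 at 0.85 to 0.95 and with each other at 0.97, whereas HEMA2 correlated with none of the other genes above 0.14, and GSA1 with none above 0.27. HEMA2 and GSA1 correlated with each other at -0.89, over group means that spanned 0.21 for HEMA2 and 0.37 for GSA1. These are descriptions over 6 points that share arrays. Among 4607 probe sets of other single genes whose group means spanned at least 0.5, the 2 most like each gene over the 18 arrays were picked by Pearson r. They were AT1G74730 (0.98) and AT1G21500 (0.98) for HEME1, and AT5G19940 (0.99) and AT1G21500 (0.97) for CHLM. For CHLI2 they were AT5G51110 (0.96) and AT3G54210 (0.96), and for HEME2 AT3G11630 (0.94) and AT4G01150 (0.93). HEMB1 and LIL3:1 shared the starch branching enzyme gene SBE2.2, at 0.87 and 0.85, beside AT1G52220 (0.87) for HEMB1 and AT4G17740 (0.89) for LIL3:1. HEMA2 was nearest to the brassinosteroid receptor gene BRL1 (0.87) and AT1G72100 (0.86), and GSA1 to AT4G26230 (0.84) and AT3G63510 (0.83). Genes as flat as HEMA2 and GSA1 were not among the candidates. Over the arrays, leaving out wild-type dark array C moved the correlation of HEMA2 with HEMB1 from -0.51 to -0.07. That with LIL3:1 moved from -0.46 to -0.06 and that with CHLM from 0.18 to 0.38. The part of this array in the likeness of HEMA2 was not tested.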

How the data were processed

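Each value is a log2 signal intensity of a probe set on 1 array, made by the authors by robust multi-array averaging (RMA), per the submitters' processing notes. Its version and background model were not stated in those notes or the labels, and 100 ng of total RNA was amplified per the labels' protocols. The table was used as deposited. It held 22810 probe sets, of which 64 controls were left out. Of the rest, the platform's annotation named 1 gene for 13513, several for 503 and none for 8730, and 13436 matched a locus of the TAIR10.1 gene table.

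limma 3.58.1 in R 4.3.3 fitted 1 mean per group to all 18 arrays. Variances were moderated by empirical Bayes, with 12 degrees of freedom from the residuals and 5.91 from the prior. In each of 12 comparisons p was adjusted by Benjamini-Hochberg over 22746 probe sets. The procedure was tested on simulated data. An exact test of 3 arrays against 3 cannot go below 0.1. The number of arrays limits the precision. All 8 genes are named with their levels, changes are given with SE and adjusted p where called, and other genes come from fixed lists or from likeness. Alternatives were quantile normalization, a common median, a filter on dim probe sets (mean under 6), array weights, the replicate block, a fit of the compared groups only and each array left out. The 8 genes, the lists and the tests were chosen with earlier results of these data known.

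Replicate letters were checked for pairing by correlating deviations from group means. Of 9 comparisons of 2 groups, 1 (24 h against 1 h in wild type) had all 3 letters above 0.1 (0.103 to 0.304), and the labels name no shared batch.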

Additional observations from a re-analysis of the deposited data

How the results depend on the processing

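None of the changes that were called in the main fit changed sign in any alternative. For the 8 genes and the other listed genes together, 28 called changes were refitted 375 times, and the call held in 322 and was lost in 53. The number of the 8 genes called moved as follows. After 24 h against darkness in wild type, 4 were called. The count was 3 with a common median, 3 with array weights and 2 when only the compared groups were fitted. With 1 array left out it lay between 2 and 6. Of all probe sets 2559 were called in the main fit, 2369 with a common median and 1531 with array weights. There were 756 with the compared groups only and 1676 to 3814 with 1 array left out. For 24 h against 1 h in wild type, 4 were called, 2 with quantile normalization and 2 with the arrays set to a common median. There were 5 with array weights and 5 when only the compared groups were fitted (HEMB1 added in both). With 1 array left out there were between 2 and 4. Of all probe sets 1639 were called in the main fit, 2128 with quantile normalization and 1895 with a common median. There were 3551 with array weights, 2238 with the compared groups only and 1077 to 1404 with 1 array left out. After 24 h against darkness in the mutant, 4 were called. There were 5 (HEMB1 added) with the replicate block, array weights, dim probe sets left out or the compared groups only. Of all probe sets 2605 were called in the main fit, 2961 with the block and 4607 with array weights. There were 2587 of the smaller set without dim probe sets, and 2555 with the compared groups only. For 24 h against 1 h in the mutant, 4 were called, 3 with quantile normalization and 3 with a common median. With 1 array left out there were between 2 and 3. Of all probe sets 2588 were called in the main fit, 3194 with quantile normalization and 2975 with a common median. With 1 array left out there were 1677 to 2175. Between the genotypes at 1 h, 0 were called, and 1 (HEME1) with array weights and 1 (HEME1) with the replicate block. Of all probe sets 6 were called in the main fit, 425 with array weights and 39 with the block. Between the genotypes at 24 h, 1 was called, 0 when only the compared groups were fitted, and between 0 and 1 with 1 array left out. Of all probe sets 83 were called in the main fit, 13 with the compared groups only and 21 to 178 with 1 array left out. Averaged over light, 2 were called, 4 with the replicate block (HEME1, HEME2, CHLI2 and CHLM), and between 1 and 3 with 1 array left out. With array weights, and with dim probe sets left out, HEME1, CHLI2 and CHLM were called. In the main fit 282 of all probe sets were called for this average. The causes of these shifts were not tested. The replicate block changed the count by over 1.5 times in no other comparison. Of 45 same-letter correlations 24 exceeded 0.1, and 11 of 18 arrays correlated best with their own letter, a hint from the data of a shared letter effect. Letters were not treated as pairs in the main results because no label says what they mark and 1 of 9 comparisons of 2 groups had all 3 letters above 0.1. Counts of 0 for 1 h of light in either genotype, for darkness between genotypes and for both interactions held in all alternatives run. Precision is set by 3 arrays per group, and the SE of a difference between 2 groups ran from 0.13 for CHLM to 0.27 for LIL3:1.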
